A study of Mus musculus with 16 samples.

Results

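Complex I of the mitochondrial respiratory chain was examined through the genes whose symbol begins with Nduf. All such rows of the deposited log2 CPM table were taken, which gave 48 of its 16707 genes. They comprised 40 subunits and 8 assembly factors, the Ndufaf genes, and the subunits were divided into 7 core and 33 accessory subunits. Classes were set by symbol, so the accessory subunits included Ndufa4, its paralogue Ndufa4l2 and Ndufb4c, a close copy of Ndufb4. RNA had been sequenced from primary astrocytes of WT (C57BL6J) and NLRX1-/- mouse pups, where NLRX1 is a mitochondrial protein of the NOD-like receptor family. Cells from dissociated brains of P6 pups were selected with beads against the astrocyte antigen ACSA2 and grown without serum, with heparin-binding EGF, for about 10 days. They then received vehicle (water) or 500 ng/mL lipopolysaccharide (LPS) plus 10 ng/mL IFNγ for 24 h. Each of the 4 groups, WT vehicle, WT LPS+IFNγ, NLRX1-/- vehicle and NLRX1-/- LPS+IFNγ, held 4 libraries, and both libraries of a replicate were wells from the same set of mice, here called a litter. All groups shared the culture conditions, and each litter had a single genotype. The age is P6 in the labels and methods, and the study's results text gives an earlier neonatal age. Which part of the gene was removed in the NLRX1-/- line is not given in the sources used here.

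Complex I accepts electrons from NADH and passes them through a flavin and a chain of iron-sulfur clusters to ubiquinone, and couples this to the pumping of protons across the inner mitochondrial membrane. Its core subunits, conserved from bacteria, carry the redox centres and the proton channels, of which the membrane core is encoded by mitochondrial DNA and the remainder by nuclear genes. Accessory subunits surround the core, and assembly factors bind intermediates and are absent from the finished enzyme. In astrocytes, which rely strongly on glycolysis, complex I is known for its loose incorporation into supercomplexes and for its part in the production of reactive oxygen species. The subunits encoded by mitochondrial DNA were not analysed here.

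The libraries held 27259420 to 43752903 read pairs assigned to transcripts, with a median of 35554625. Nlrx1 itself averaged 4.22 ± 0.15 log2 CPM in WT vehicle and 2.47 ± 0.53 in NLRX1-/- vehicle, and 4.12 ± 0.05 against 1.90 ± 0.54 after LPS+IFNγ (SD, n = 4 litters each), so reads of the gene remained in the NLRX1-/- libraries. The genotype difference was -1.70 log2 in vehicle (adjusted p = 0.0539) and -2.19 log2 after LPS+IFNγ (adjusted p = 0.00319, edgeR). All 10 astrocyte markers were detected. Their summed level was 4230 to 6870 TPM in WT vehicle and 2980 to 5000 in NLRX1-/- vehicle. After LPS+IFNγ it was 3430 to 5040 TPM in WT and 2690 to 3870 in NLRX1-/- libraries. Against WT, 8 of the 10 were lower in NLRX1-/- vehicle (median -0.36 log2, 0 called). After LPS+IFNγ all 10 were lower (median -0.77 log2), and 3 were called (edgeR), where 2.38% of all genes were. Of 10 microglial markers, 9 were not in the deposited table, and the summed level of the list was 0.208 to 3.58 TPM. Reads per library were fewest for Cx3cr1, at 0 to 3, and most for P2ry12, at 2 to 56, with Aif1 at 0 to 5. The response of P2ry12 was 1.78 log2 (SE 0.73, adjusted p = 0.0702) in WT and 2.26 log2 (SE 0.71, adjusted p = 0.0219, edgeR) in NLRX1-/- astrocytes. The oligodendrocyte precursor markers had a summed level of 1460 to 3130 TPM. Most of it came from Olig1 (mean 1680 TPM) and Olig2 (391 TPM), while Pdgfra and Cspg4 averaged 22.3 and 10.4 TPM.

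The complex I genes were expressed strongly in these astrocytes, and the subunits at a much higher level than the assembly factors. On the TPM scale, which allows genes of different length to be compared, the median over the 40 subunits was 221 ± 4.8 TPM in WT vehicle (SD, n = 4) and that over the 8 assembly factors was 26.6 ± 1.54 TPM. In NLRX1-/- vehicle the medians were 237 ± 7.19 and 25.9 ± 0.746 TPM. The ratio of the medians was between 7.74 and 10.2 in the 16 libraries. Of the 40 subunits, 36 had a mean level over 100 TPM, against a median of 14.6 TPM over all genes tested. Only 4 subunits lay below the most abundant assembly factor, Ndufaf8 (94.9 TPM).

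Among the core subunits, the mean level over all libraries was 246.4 TPM for Ndufs8, which binds iron-sulfur clusters, and 103 TPM for Ndufs1, the large iron-sulfur subunit. Ndufs7, Ndufs3 and Ndufv2 lay between 240.3 and 176.1 TPM, and Ndufv1, which binds the flavin and NADH, at 133.8 TPM. Neighbours among these overlapped across libraries except Ndufv1 (119 to 157 TPM) and Ndufs1 (90.6 to 116 TPM), as the plot of levels shows.

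The highest level of all was that of Ndufa4, a protein first assigned to complex I and later placed in complex IV. In the order of the litters, it was 1350, 1220, 1350 and 1130 TPM in WT vehicle and 1180, 1200, 1190 and 1280 TPM in WT LPS+IFNγ. The NLRX1-/- litters held it at 1400, 1530, 1350 and 1500 TPM with vehicle and at 1230, 1180, 1320 and 1200 TPM after LPS+IFNγ. The libraries without stimulation were the higher in all NLRX1-/- litters on this scale, which is not adjusted for library composition. Ndufa3, a small membrane subunit, followed, with 852, 827, 987 and 716 TPM in WT vehicle and 957, 835, 1110 and 987 TPM in WT LPS+IFNγ. The NLRX1-/- libraries held Ndufa3 at 939, 977, 961 and 875 TPM in vehicle and 939, 802, 839 and 941 TPM after LPS+IFNγ, so the groups overlapped. The effective length of Ndufa3 was 78 bases, which makes its TPM sensitive to the length model.

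At the lower end stood Ndufa11, a membrane subunit at the contact with complex III, with a mean of 37.83 TPM, and Ndufa4l2, the paralogue of Ndufa4 known for its induction by hypoxia. Ndufa4l2 had 0 to 22 reads per library and was near the limit of detection. Its levels were 1.69, 1.35, 0.312 and 0.603 TPM in WT vehicle and 0.532, 0.21, 0.165 and 0.126 TPM in WT LPS+IFNγ. In NLRX1-/- litters they were 1.66, 0.792, 1.42 and 0 TPM in vehicle and 0, 0.571, 0.331 and 0.271 TPM after LPS+IFNγ. Its responses of -1.68 log2 (SE 1.01) in WT and -1.21 log2 (SE 1.06) in NLRX1-/- astrocytes were within this spread.

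The assembly factors ran from Ndufaf8 and Ndufaf2 (58.24 TPM) through Ndufaf1, Ndufaf5, Ndufaf7 and Ndufaf3, between 33.5 and 22.35 TPM, to Ndufaf6 (15.29 TPM) and Ndufaf4 (12.6 TPM). Ndufaf8 and Ndufaf5 are partners in the modification of Ndufs7, and Ndufaf2 is the paralogue of the subunit Ndufa12 and holds its place late in assembly.

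**Figure D1:**
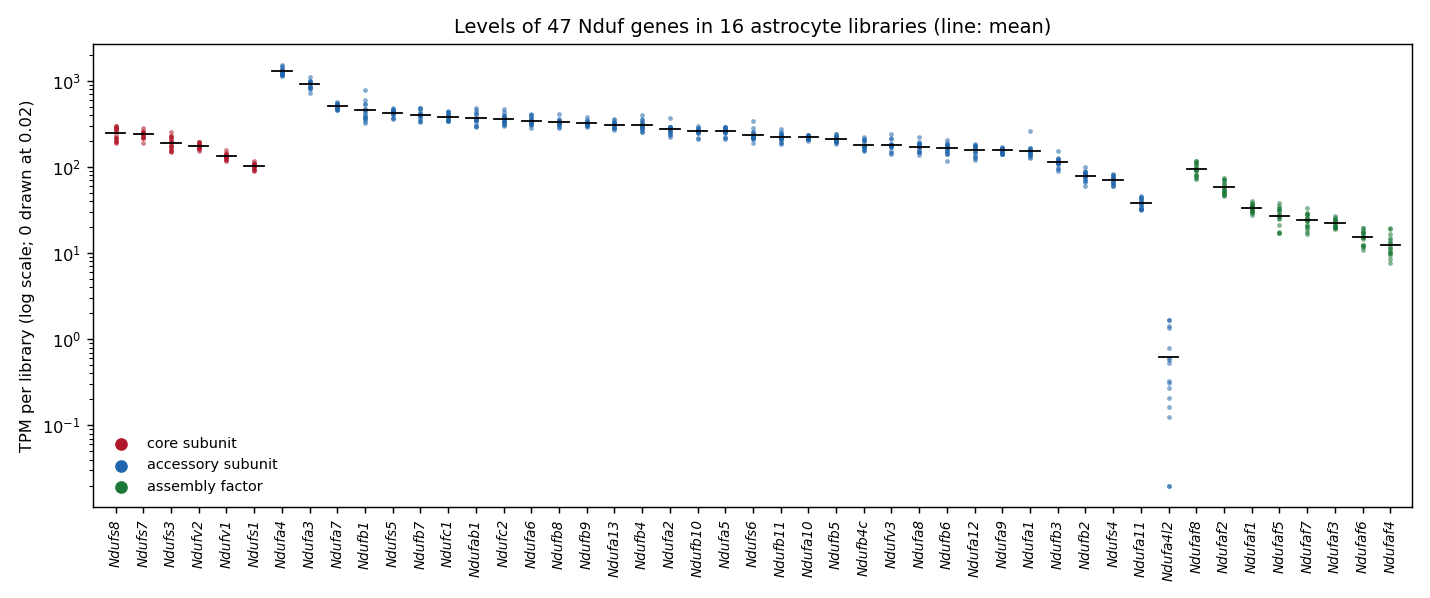
Level of 47 of the 48 genes in TPM (log axis) in the 16 libraries, with points for libraries and a line for the mean, coloured by class. All assembly factors lie at or below 94.9 TPM on average, all but 4 of the subunits shown lie over 100 TPM, and Ndufa4l2 stands apart near 0.

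After LPS+IFNγ, most transcripts of complex I rose in WT astrocytes. Of the 48 genes 38 rose and 0 fell at an adjusted p below 0.05 (edgeR), where 23.7% of all 16066 genes tested rose and 20.2% fell. All 48 genes passed the filter on low counts. The risers were 34 of the 40 subunits, of which 6 of 7 were core and 28 of 33 accessory, and 4 of the 8 assembly factors. The median response was 0.39 log2 over the subunits and 0.35 log2 over the assembly factors, against -0.02 over all genes tested. The changes were small: apart from Ndufa4l2, the subunits ran from 0.00 to 0.80 log2 and the assembly factors from -0.19 to 0.94 log2. In the deposited log2 CPM, 36 subunits were higher with LPS+IFNγ than with vehicle in all 4 WT litters. The share of all genes is not given for this count.

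In the core, Ndufs3 rose most, by 0.74 log2 (SE 0.08, adjusted p = 4.87e-05), followed by Ndufs8 at 0.65 (SE 0.06, adjusted p = 8.9e-06) and Ndufs7 at 0.39 (SE 0.09, adjusted p = 0.00472, edgeR). These belong to the arm that hands electrons to ubiquinone. Ndufv2 rose by 0.33 log2 (SE 0.06) and Ndufv1 by 0.31 (SE 0.06), both part of the module that oxidises NADH. Ndufs1 did not pass the test at 0.16 log2 (SE 0.06, adjusted p = 0.0506, edgeR).

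Among the accessory subunits, the largest rise was that of Ndufb1, a single-span membrane subunit, followed by Ndufa12 and Ndufb2. Ndufb1 had 3.66, 3.86, 3.48 and 3.78 log2 CPM in WT vehicle and 4.16, 4.61, 4.99 and 4.23 log2 CPM in WT LPS+IFNγ, and the groups did not overlap. In NLRX1-/- litters it had 3.76, 3.78, 3.68 and 3.61 log2 CPM in vehicle and 4.40, 4.23, 4.21 and 4.46 log2 CPM after LPS+IFNγ. The difference was 0.80 log2 (SE 0.16, adjusted p = 0.00204) in WT and 0.61 log2 (SE 0.16, adjusted p = 0.008, edgeR) in NLRX1-/- astrocytes. WT litter 3 gave the largest response at 1.51 log2, against 0.45 to 0.75 in the others. The effective length of Ndufb1 was 68 bases.

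Ndufa12, which sits where the NADH-oxidising and ubiquinone-reducing parts meet, had 5.63, 5.62, 5.48 and 5.59 log2 CPM in WT vehicle and 6.10, 6.34, 6.33 and 6.18 log2 CPM in WT LPS+IFNγ. In the NLRX1-/- litters the values were 5.87, 6.09, 5.83 and 5.86 log2 CPM and 6.25, 6.29, 6.24 and 6.30 log2 CPM. Stimulated libraries were higher in all 8 litters, and the vehicle libraries of NLRX1-/- astrocytes all lay above those of WT. The response was 0.65 log2 (SE 0.07, adjusted p = 3.59e-05) in WT and 0.35 log2 (SE 0.07, adjusted p = 0.00196, edgeR) in NLRX1-/- astrocytes. Ndufb2 rose by 0.65 (SE 0.08) and 0.24 log2 (SE 0.08), the latter lost without NLRX1-/- litter 3 or 4, with adjusted p up to 0.120 (edgeR).

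Ndufab1, the mitochondrial acyl carrier protein, rose by 0.44 (SE 0.05) in WT and 0.46 log2 (SE 0.05) in NLRX1-/- astrocytes, and Ndufs4, a late-joining subunit whose loss causes a Leigh-like disease in mice, by 0.45 (SE 0.06) and 0.34 log2 (SE 0.06). Ndufa4 gave 0.16 log2 (SE 0.07, adjusted p = 0.100) in WT and -0.06 log2 (SE 0.07, adjusted p = 0.523, edgeR) in NLRX1-/- astrocytes. Its paralogue AA467197, also known as Nmes1, which can take the place of Ndufa4 in complex IV during inflammation, rose by 3.62 log2 (SE 0.44, adjusted p = 7.98e-05) in WT and 3.89 log2 (SE 0.45, adjusted p = 5.2e-05, edgeR) in NLRX1-/- astrocytes.

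In NLRX1-/- astrocytes, 23 of the 48 genes rose and 1 fell (edgeR), where 25.2% of all genes tested rose and 24.2% fell. The subunits accounted for 18 of the rises, in 3 of 7 core and 15 of 33 accessory subunits, and 5 of the 8 assembly factors rose. The median response was 0.17 log2 over the subunits and 0.34 log2 over the assembly factors, against -0.03 over all genes tested. In the deposited log2 CPM, 25 subunits were higher with LPS+IFNγ in all 4 NLRX1-/- litters, a count for which the share of all genes is not given either.

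The core subunits that rose in NLRX1-/- astrocytes were Ndufs8 (0.60 log2, SE 0.06, adjusted p = 1.32e-05), Ndufs3 (0.48, SE 0.08, adjusted p = 0.000733) and Ndufv2 (0.29, SE 0.06, adjusted p = 0.00173, edgeR). Ndufs7, Ndufv1 and Ndufs1 had 0.18, 0.09 and 0.03 log2 and did not pass the test. Over all 48 genes, 21 were called in both genotypes, each in the same direction, 17 in WT alone, 3 in NLRX1-/- alone and 7 in neither. The matching shares of all genes are not given. The 17 called in WT alone were 16 subunits and Ndufaf2, and the 3 called in NLRX1-/- alone were the assembly factors Ndufaf3, Ndufaf4 and Ndufaf7. Being called in a single genotype does not show that the responses differ, and the difference itself is tested further on.

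**Figure D2:**
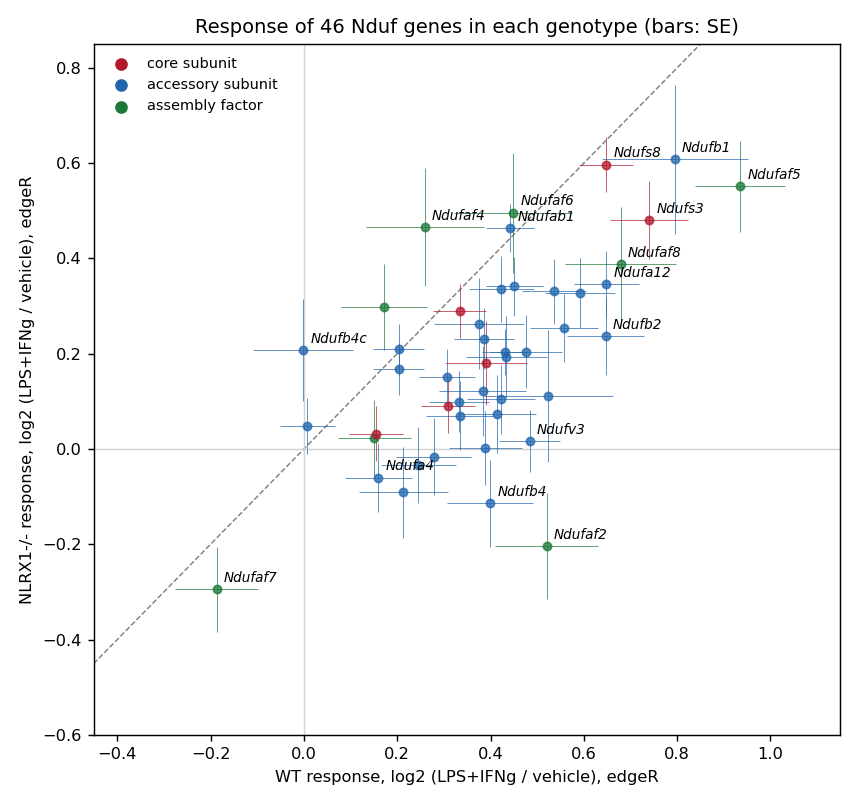
Response to LPS+IFNγ in WT (x axis) and NLRX1-/- astrocytes (y axis), as log2 fold change from edgeR with SE bars, for 46 of the 48 genes (Ndufa4l2, near 0 reads, is left out). The dashed line marks equal responses. Most points lie below it, Ndufaf2 the farthest at 0.52 and -0.20 log2, while Ndufs8 (0.65 and 0.60 log2) and Ndufab1 lie close to it.

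The assembly factors did not move as a block. Ndufaf5, which modifies Ndufs7, had the largest rise among the 48 genes in WT. It had 3.23, 3.01, 2.94 and 2.98 log2 CPM in WT vehicle and 4.04, 3.93, 4.14 and 3.88 log2 CPM in WT LPS+IFNγ. In the NLRX1-/- litters it had 3.64, 3.71, 3.55 and 3.66 log2 CPM in vehicle and 4.32, 4.17, 4.00 and 4.24 log2 CPM after LPS+IFNγ. Stimulated and vehicle libraries did not overlap in either genotype, and all NLRX1-/- vehicle libraries lay above all WT vehicle libraries. The response was 0.94 log2 (SE 0.10, adjusted p = 2.74e-05) in WT and 0.55 log2 (SE 0.10, adjusted p = 0.000757, edgeR) in NLRX1-/- astrocytes.

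Ndufaf8, its partner, had 3.11, 3.19, 3.15 and 3.03 log2 CPM in WT vehicle and 3.89, 3.62, 3.92 and 3.79 log2 CPM in WT LPS+IFNγ. In the NLRX1-/- litters it had 3.37, 3.51, 3.45 and 3.13 log2 CPM in vehicle and 3.56, 3.77, 3.79 and 3.94 log2 CPM after LPS+IFNγ. The groups were separate in both genotypes, with a response of 0.68 log2 (SE 0.12, adjusted p = 0.001) in WT and 0.39 log2 (SE 0.12, adjusted p = 0.0196, edgeR) in NLRX1-/- astrocytes. Without NLRX1-/- litter 4 the latter call was lost (adjusted p = 0.0982, edgeR). Ndufaf6, needed early in assembly, rose by 0.45 (SE 0.13) and 0.50 log2 (SE 0.13), and its call in WT was lost without WT litter 2 or 4, with adjusted p up to 0.0726 (edgeR).

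Ndufaf3 and Ndufaf4 act together on an early intermediate. Ndufaf4 gave 0.26 log2 (SE 0.13, adjusted p = 0.122) in WT and rose by 0.47 log2 (SE 0.12, adjusted p = 0.00968) in NLRX1-/- astrocytes, and Ndufaf3 gave 0.17 log2 (SE 0.09, adjusted p = 0.154) and rose by 0.30 log2 (SE 0.09, adjusted p = 0.0199, edgeR). Ndufaf7, a methyltransferase, was the single gene that fell, by 0.29 log2 in NLRX1-/- astrocytes (SE 0.09, adjusted p = 0.0188, edgeR), and had -0.19 log2 (SE 0.09, adjusted p = 0.115) in WT. The calls in NLRX1-/- astrocytes were lost without litter 1 for Ndufaf4 and Ndufaf7, without litter 2 for Ndufaf3, and without litter 4 for Ndufaf3 and Ndufaf7, with adjusted p up to 0.0898 (edgeR). Ndufaf1, of the complex that builds the membrane arm, passed in neither genotype, with 0.15 (SE 0.08) and 0.02 log2 (SE 0.08).

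The response of WT astrocytes was larger than that of NLRX1-/- astrocytes for most of these genes, but no single gene passed the test of the difference. The interaction, the NLRX1-/- response minus the WT response, was negative for 40 of the 48 genes, with medians of -0.22 log2 over the subunits, -0.12 over the assembly factors and -0.02 over all genes tested. At an adjusted p below 0.05, edgeR called 0 of the 48 genes and 0% of all genes in either direction, with adjusted p values of 0.218 and above. Before adjustment, 21 of the 48 genes had p below 0.05, all with a negative difference, as did 2471 of the 16066 genes, of which 1524 were negative. DESeq2 called 3 of the 48 genes, Ndufv3, Ndufb4 and Ndufaf2, as negative, and 1.34% of all genes. Without NLRX1-/- litter 3, edgeR called Ndufv3 (adjusted p = 0.0465) and 1.17% of all genes as negative.

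Ndufv3, an accessory subunit of the NADH-oxidising part at chr17:31739052-31751735 on GRCm39, had the lowest interaction p among the subunits. It had 5.03, 5.31, 5.31 and 5.32 log2 CPM in WT vehicle and 5.46, 5.78, 5.96 and 5.76 log2 CPM in WT LPS+IFNγ. In NLRX1-/- litters it had 5.28, 5.29, 5.40 and 5.34 log2 CPM in vehicle and 5.44, 5.26, 5.50 and 5.24 log2 CPM after LPS+IFNγ. Stimulated WT libraries stood above vehicle, while the NLRX1-/- groups overlapped. It rose by 0.48 log2 (SE 0.07, adjusted p = 0.000158) in WT, against 0.02 log2 (SE 0.07, adjusted p = 0.848) in NLRX1-/- astrocytes, an interaction of -0.47 log2 (SE 0.09, adjusted p = 0.218, edgeR).

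Ndufb4, a membrane-arm subunit, had 4.73, 4.42, 4.55 and 4.43 log2 CPM in WT vehicle and 4.90, 4.89, 5.13 and 4.84 log2 CPM in WT LPS+IFNγ. In NLRX1-/- litters it had 4.70, 5.14, 4.85 and 4.93 log2 CPM in vehicle and 4.83, 4.77, 4.78 and 4.85 log2 CPM after LPS+IFNγ. The WT groups did not overlap and the NLRX1-/- groups did, for an interaction of -0.51 log2 (SE 0.13, adjusted p = 0.218, edgeR). Ndufb4 lies at chr16:37467242-37474815 on GRCm39 and Ndufb4c, a close copy with which it can share reads, at chr15:73681356-73681745. Ndufb4c had values of 0.00 log2 (SE 0.11) in WT and 0.21 (SE 0.11) in NLRX1-/- astrocytes, so the values of both are uncertain. With the counts of both summed, an alternative chosen after seeing the data, the WT response was 0.25 log2, the NLRX1-/- response 0.00 log2 and the interaction -0.25 log2 (adjusted p = 0.293, edgeR).

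Ndufb2, Ndufb3, Ndufa9 and Ndufa2 followed by p, with interactions of -0.41 (SE 0.12), -0.39 (SE 0.11), -0.23 (SE 0.07) and -0.32 log2 (SE 0.10), each at an adjusted p between 0.224 and 0.226 (edgeR). Ndufb2 and Ndufb3 belong to the membrane arm, Ndufa9 lies beside the ubiquinone site, and Ndufa2 has a thioredoxin-like fold.

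Ndufaf2, at chr13:108139249-108295189 on GRCm39, had the most negative interaction of all 48 genes. It had 3.35, 3.38, 3.21 and 3.15 log2 CPM in WT vehicle and 3.87, 3.86, 4.04 and 3.42 log2 CPM in WT LPS+IFNγ. In NLRX1-/- litters it had 3.79, 3.87, 3.62 and 3.54 log2 CPM in vehicle and 3.73, 3.45, 3.47 and 3.55 log2 CPM after LPS+IFNγ. It was higher with LPS+IFNγ in all WT litters, and lower in 3 of the 4 NLRX1-/- litters. The response was 0.52 log2 (SE 0.11, adjusted p = 0.00339) in WT and -0.20 log2 (SE 0.11, adjusted p = 0.151) in NLRX1-/- astrocytes, and the interaction was -0.72 log2 (SE 0.16, adjusted p = 0.218, edgeR). Ndufa12, whose place Ndufaf2 holds during assembly, had an interaction of -0.30 log2 (SE 0.10), and Ndufaf5 of -0.39 log2 (SE 0.14, adjusted p = 0.239).

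**Figure D3:**
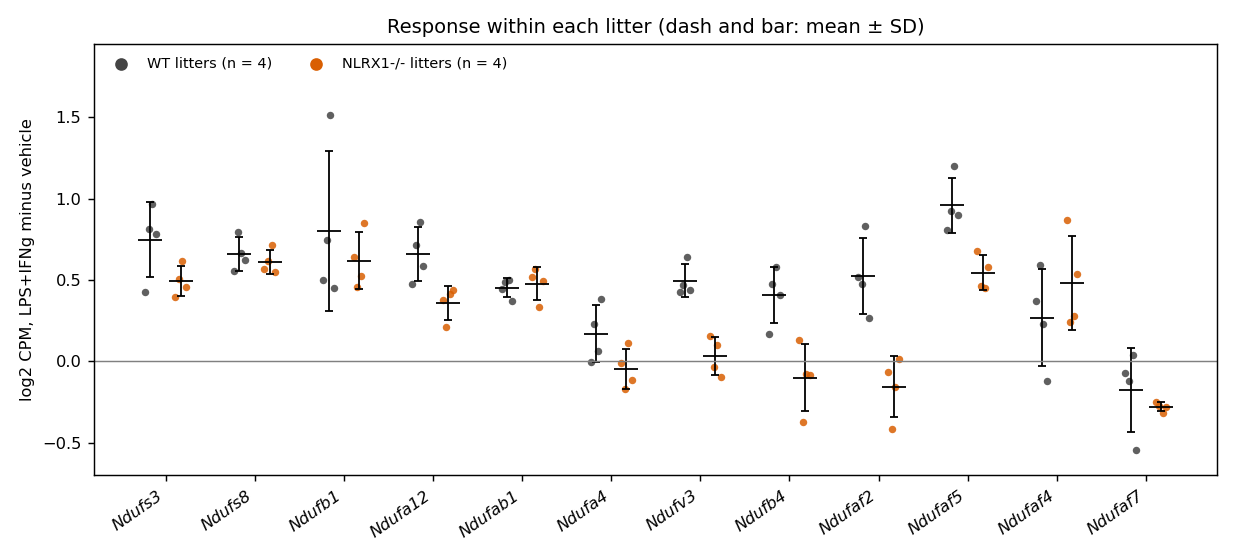
Difference in deposited log2 CPM between the LPS+IFNγ and the vehicle library of each litter for 12 genes, with 4 WT and 4 NLRX1-/- litters as points and dash and bar for mean ± SD. The litters of the genotypes do not overlap for Ndufa12, Ndufv3, Ndufb4, Ndufaf2 and Ndufaf5, while they do for Ndufs8, Ndufab1 and Ndufaf4.

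The promoters of a few of these genes are shown, taken from RefSeq on GRCm38.p6 with 300 bases each, mostly upstream of the start of the gene. The table held 41 of the 48 genes. The recognition cores of factors known to act on nuclear genes of the respiratory chain were searched on both strands: NRF1 (TGCGCA, which is its own reverse complement), the ETS family (CCGGAAG), YY1 (AAGATGG) and the ERR half-site (AAGGTCA). No core contains another. NRF1 was found in 26.8% of the 41 genes and in 8.79% of all 27025 genes of the table, YY1 in 19.5% and 7.28%, ETS in 14.6% and 9.93%, and ERR in 7.32% and 5.38%. Of the 7 assembly factors in the table, 1 held NRF1, 2 ETS, 1 YY1 and 0 ERR. The promoters of Ndufs3 (chr2:90904672-90904971, minus strand) and Ndufs8 (chr19:3912725-3913024, minus) are shown for the core subunits that rose most, those of Ndufb4 (chr16:37654319-37654618, minus) and Ndufa9 (chr6:126849095-126849394, minus) for subunits with low interaction p that hold NRF1, and that of Ndufaf2 (chr13:108158576-108158875, minus) for the most negative interaction. Among the other subunits with low interaction p, Ndufv3 and Ndufb3 held none of the cores and Ndufb2 held ERR alone. Ndufa2 was not among the 41 genes. Matches are in capitals, and Ndufaf2 has none of these letters in the window.
Ndufs3: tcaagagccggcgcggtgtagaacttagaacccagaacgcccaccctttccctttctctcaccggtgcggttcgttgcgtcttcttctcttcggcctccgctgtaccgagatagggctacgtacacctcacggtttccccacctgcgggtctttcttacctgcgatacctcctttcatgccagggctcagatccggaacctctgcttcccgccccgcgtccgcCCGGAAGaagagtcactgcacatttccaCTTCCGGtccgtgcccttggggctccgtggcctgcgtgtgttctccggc
Ndufs8: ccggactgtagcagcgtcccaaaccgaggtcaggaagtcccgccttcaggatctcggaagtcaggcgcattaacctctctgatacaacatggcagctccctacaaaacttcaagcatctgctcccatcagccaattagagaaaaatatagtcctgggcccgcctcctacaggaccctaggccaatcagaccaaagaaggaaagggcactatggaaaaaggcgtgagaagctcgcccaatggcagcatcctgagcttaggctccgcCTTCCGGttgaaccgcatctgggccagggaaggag
Ndufb4: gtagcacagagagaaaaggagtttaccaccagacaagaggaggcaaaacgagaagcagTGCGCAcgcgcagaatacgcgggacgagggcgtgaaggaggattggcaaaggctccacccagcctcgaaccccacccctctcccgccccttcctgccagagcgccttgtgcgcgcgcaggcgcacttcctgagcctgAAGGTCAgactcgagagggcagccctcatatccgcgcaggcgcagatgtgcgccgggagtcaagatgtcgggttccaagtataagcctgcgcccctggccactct
Ndufa9: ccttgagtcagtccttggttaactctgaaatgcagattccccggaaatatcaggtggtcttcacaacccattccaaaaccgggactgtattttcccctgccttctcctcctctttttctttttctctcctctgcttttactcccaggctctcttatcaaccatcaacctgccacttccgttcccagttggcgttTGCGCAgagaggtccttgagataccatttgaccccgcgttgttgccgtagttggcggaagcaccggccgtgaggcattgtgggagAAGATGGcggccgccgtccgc
Ndufaf2: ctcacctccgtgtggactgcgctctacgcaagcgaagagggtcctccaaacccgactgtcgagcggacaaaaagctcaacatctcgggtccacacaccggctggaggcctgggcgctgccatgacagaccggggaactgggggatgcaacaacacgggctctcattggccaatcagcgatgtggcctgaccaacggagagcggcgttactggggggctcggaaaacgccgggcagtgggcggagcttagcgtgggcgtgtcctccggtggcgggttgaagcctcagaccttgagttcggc
Ndufs3 has 2 matches to ETS and Ndufs8 has 1. Ndufb4 has 1 match to NRF1 and 1 to ERR, and Ndufa9 has 1 to NRF1 and 1 to YY1. Whether a factor binds there was not measured.

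By litter, 10 of the 40 subunits and 2 of the 8 assembly factors had responses in all NLRX1-/- litters below those in all WT litters, where 5.25% of all genes in the deposited table did, and 0 of the 48 had the reverse, where 3.06% did. The median response of the subunits within a litter was 0.24, 0.43, 0.50 and 0.41 log2 in WT and 0.15, 0.12, 0.19 and 0.25 log2 in NLRX1-/- litters. NLRX1-/- litter 4 just passed WT litter 1, so the genotypes overlapped there. For the assembly factors the medians were 0.30, 0.45, 0.39 and 0.22 log2 in WT and 0.18, 0.26, 0.24 and 0.52 log2 in NLRX1-/- litters, which overlapped widely.

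Markers of cycling cells and of cell types also changed after LPS+IFNγ, partly in the opposite direction to the complex I genes. Of 7 markers of cycling cells, 3 rose and 1 fell in WT (median 0.23 log2) and 0 rose and 3 fell in NLRX1-/- astrocytes (median -0.25 log2, edgeR), and all 7 had a negative interaction, none of them called. Their summed level was 704 to 1320 TPM in WT vehicle, 813 to 1160 in WT LPS+IFNγ, 974 to 1320 in NLRX1-/- vehicle and 622 to 1100 in NLRX1-/- LPS+IFNγ. The astrocyte markers had median responses of -0.30 log2 in WT and -0.45 in NLRX1-/- astrocytes. The oligodendrocyte markers had -0.39 and -0.95 log2, with summed levels of 333 to 622 TPM in WT LPS+IFNγ and 163 to 393 TPM in NLRX1-/- LPS+IFNγ, and Mog at 0 to 15 reads per library. Their part in the complex I responses was not tested. In bulk RNA, a change in the share of a cell type and a change in RNA per cell cannot be told apart.

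The responses also varied with transcript length. The median effective length was 409 bases over the subunits, 990 over the assembly factors and 2685 over all genes tested, and 36 of the 48 genes fell in the shortest of 10 equal bins of genes. The 1607 genes of that bin had a median response of 0.14 log2 in WT and -0.01 in NLRX1-/- astrocytes and a median interaction of -0.14, against 0.42, 0.19 and -0.26 log2 for the 36 complex I genes among them. With each library's trend on gene length removed, the median over the subunits was 0.24 log2 in WT, 0.17 in NLRX1-/- astrocytes and -0.08 for the interaction, and 31 of the 48 genes were called up in WT and 24 in NLRX1-/- astrocytes, where 24.1% and 26.9% of all genes were.

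**Figure D4:**
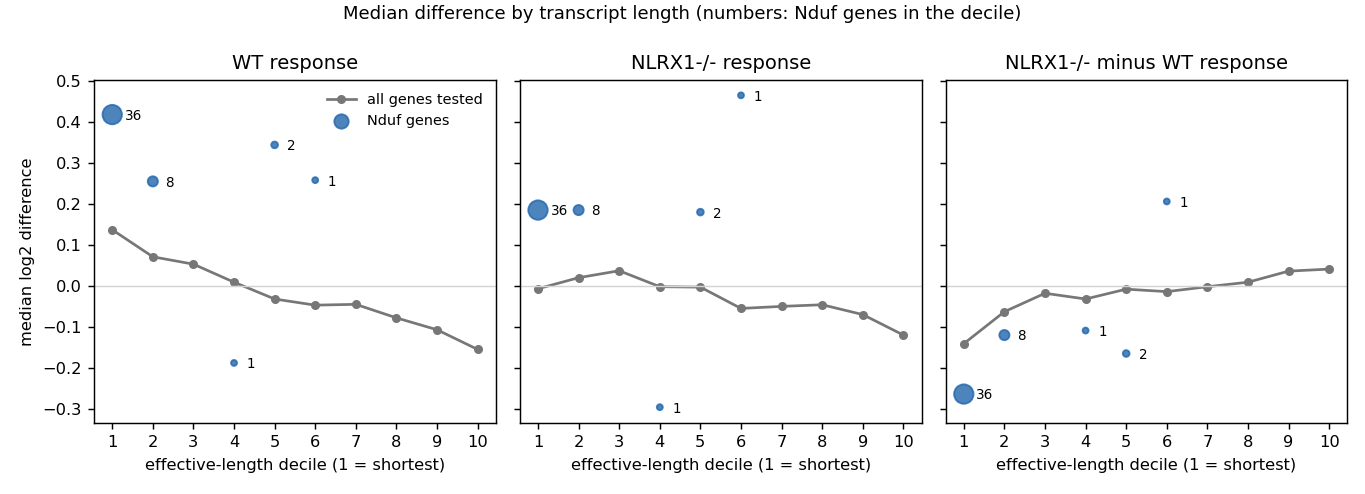
Median log2 response in WT, in NLRX1-/- astrocytes and their difference, for all genes tested (grey line) and for the complex I genes (blue, area by number of genes, number printed) in 10 bins of effective transcript length from the shortest (1) to the longest (10). In the shortest bin the 36 complex I genes lie at 0.42, 0.19 and -0.26 log2, each farther from 0 than all genes of that bin.

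In the untreated cultures, most complex I transcripts were slightly higher in NLRX1-/- than in WT astrocytes, without passing the test. Of the 48 genes 41 had a positive difference and 17 had an unadjusted p below 0.05, all of them positive, but edgeR called 0 of the 48 and 0% of all genes in either direction, with a lowest adjusted p of 0.111 among the 48. Over all genes, 1775 had a positive and 1376 a negative difference at an unadjusted p below 0.05. The median difference was 0.14 log2 over the subunits and 0.24 over the assembly factors, against 0.00 over all genes tested. The highest were Ndufaf5 (0.57 log2, SE 0.10), Ndufaf4 (0.51, SE 0.20) and Ndufaf2 (0.43, SE 0.13). DESeq2 called 11 of the 48 and 2.98% of all genes as higher. Without NLRX1-/- litter 3, edgeR called 9 of the 48 and 3.6% of all genes as higher, and without WT litter 1 it called 2 of the 48 and 0.723% of all genes.

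After LPS+IFNγ, the genotypes were close, with median differences of -0.07 log2 over the subunits and -0.05 over the assembly factors, against -0.02 over all genes tested. Of the 48 genes 1 was higher and 1 lower in NLRX1-/- astrocytes (edgeR), where 2.65% of all genes were higher and 2.38% lower. Ndufv3 was lower, with the values given above, by 0.40 log2 (SE 0.10, adjusted p = 0.0422, edgeR). Ndufc2, a membrane subunit, was higher, by 0.34 log2 (SE 0.09, adjusted p = 0.0455, edgeR). It had 6.01, 5.94, 6.02 and 5.87 log2 CPM in WT vehicle and 6.14, 6.15, 6.22 and 6.19 log2 CPM in WT LPS+IFNγ. In NLRX1-/- litters it had 6.18, 6.48, 6.22 and 6.31 log2 CPM in vehicle and 6.44, 6.78, 6.30 and 6.56 log2 CPM after LPS+IFNγ, so that the NLRX1-/- libraries lay above the WT libraries of the same treatment throughout. Ndufaf4 (0.67 log2, SE 0.20, adjusted p = 0.0547) and Ndufab1 (0.29 log2, SE 0.08, adjusted p = 0.0552) came next. Both calls were lost when single litters were left out, with adjusted p up to 0.151 for Ndufv3 (6 of 8 litters) and 0.150 for Ndufc2 (7 of 8). A replicate block was also tried, a term for replicate number shared by WT and NLRX1-/- litters, which are different litters. With the replicate block 3 of the 48 genes were higher and 2 lower, where 6.29% of all genes were higher and 7.41% lower.

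The other complexes of the chain showed responses of like size. In WT, all 9 complex III subunits, 9 of 14 complex IV subunits, all 18 complex V subunits and 5 of 8 complex II genes rose (edgeR), with medians of 0.45, 0.28, 0.40 and 0.29 log2 and 0 falls. In NLRX1-/- astrocytes 5, 5, 9 and 4 rose, with medians of 0.20, 0.13, 0.17 and 0.25 log2, and 2 complex IV subunits fell. Median interactions were -0.13, -0.17, -0.23 and -0.16 log2, and 0 genes of these lists were called. The lowest interaction p in complex V belonged to Atp5g3, a subunit of the membrane ring (-0.43 log2, SE 0.10), Atp5g2, another gene for the same ring subunit (-0.31, SE 0.08), and Atp5e, of the central stalk (-0.43, SE 0.11), each at an adjusted p of 0.218 (edgeR).

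Assembly factors of complex I that carry other names were measured as well. Of 15 in the table, 9 rose and 1 fell in WT, and 9 rose and 3 fell in NLRX1-/- astrocytes (edgeR), with medians of 0.30 and 0.24 log2 and a median interaction of -0.06. Foxred1 rose by 0.90 (SE 0.11) and 0.66 log2 (SE 0.11), and Aifm1, which acts in the import of subunits, by 0.32 (SE 0.06) and 0.19 log2 (SE 0.06). Tmem70 rose by 0.21 (SE 0.06) and 0.43 log2 (SE 0.06). Of 10 regulators of mitochondrial biogenesis, 3 rose and 2 fell in WT and 3 rose and 0 fell in NLRX1-/- astrocytes, with medians of -0.02 and 0.05 log2. Polrmt, the mitochondrial RNA polymerase, fell by 0.32 log2 in WT (SE 0.06, adjusted p = 0.00261), and Pprc1, a coactivator, rose by 0.31 (SE 0.10) and 0.56 log2 (SE 0.10, edgeR).

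**Figure D5:**
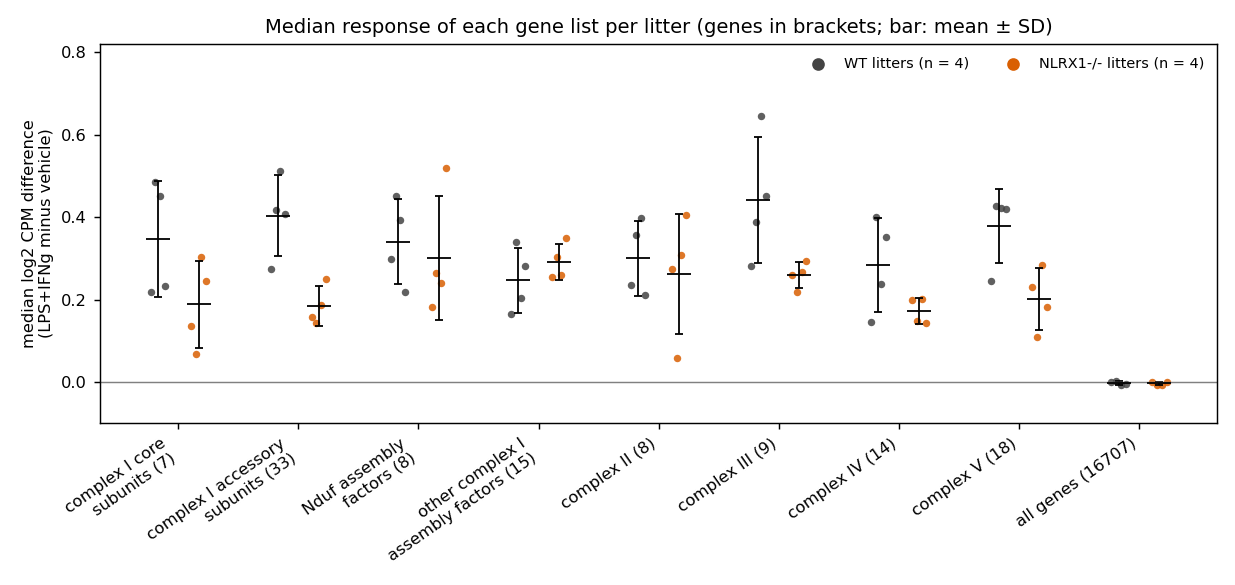
Median difference in deposited log2 CPM between the LPS+IFNγ and the vehicle library of each litter over the genes of each list, with 4 WT and 4 NLRX1-/- litters as points and dash and bar for mean ± SD. The accessory subunits average 0.40 in WT and 0.18 log2 in NLRX1-/- litters, the Nduf assembly factors 0.34 and 0.30 log2, and all 16707 genes lie near 0.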

How the data were processed

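RNA-seq of 16 libraries was used, with groups and litters taken from the labels. The authors quantified reads with Salmon 1.7.0 against GRCm39 transcripts, and the deposited expected counts are estimated read pairs per transcript without normalization. The TPM the authors deposited are Salmon's, per effective length. The deposited log2 values are log2 CPM per gene from length-scaled counts with TMM library sizes in limma 3.58.1. Expected counts and TPM were summed per gene over the 106440 of 129698 transcripts that could be paired with a symbol and the counts were rounded to whole numbers. The sums held at least 84.2% of a gene's reads relative to the deposited log2 CPM, lowest for Ndufc1 and then Ndufaf2 at 91%, apart from Ndufa4l2, whose few reads allow no comparison.

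The quasi-likelihood test of edgeR 4.0.16 (R 4.3.3) was run with TMM sizes and offsets for transcript length on genes kept by filterByExpr (minimum count 10), and p was adjusted by Benjamini-Hochberg over 16066 genes and a threshold of 0.05. Responses and their difference were fitted with genotype, litter within genotype and condition within genotype, as in the study's methods. For the contrasts of genotype, the means of the 4 conditions were fitted and litter was left out, as each litter has 1 genotype. The labels state that both libraries of a replicate come from the same mice, and their deviations from the group means correlated at r = 0.07 to 0.35 across genes, against a median of -0.05 for other litters of the genotype. The highest r between libraries of a group was 0.9807, and none was a duplicate. Per-library and per-litter values are the deposited log2 CPM, and fold changes are edgeR's. No test was run over the gene list. For 1 member, values of its own are not reported here, though it is included in the counts and medians.

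The members and lists were chosen with earlier results of these data known. Named are the core subunits, the assembly factors, Ndufa4, Ndufa4l2, Ndufab1, Ndufs4, the 3 largest rises and falls among called accessory subunits (0 fell), the 6 subunits and 2 assembly factors with the lowest interaction p, genes called between genotypes, the 2 most and least abundant of each class, and up to 3 genes of each other list by interaction p. Markers of fibroblasts (medians of -0.83 log2 in WT and -0.25 in NLRX1-/- astrocytes), endothelium (-1.49 and -0.03), ependyma (-0.82 and -1.05), neurons (-0.07 and 0.15) and oligodendrocyte precursors (-0.20 and -0.52) were also measured. The medians of endothelium and ependyma rest on 2 genes each. In NLRX1-/- astrocytes the endothelial genes went opposite ways, Flt1 with 1.71 log2 (SE 0.42) and Kdr with -1.78 (SE 0.26). Their mean levels were 0.573 and 0.917 TPM. The interaction test was tested on simulated data of 16066 genes with 200 changed. It recovered 67% of 100 changes of 1 log2 and 4% of 100 changes of 0.3 log2, with 6.58% of its calls false. The absence of calls for the interaction therefore does not show equal responses. Alternatives used DESeq2 1.42.0, limma-voom, other normalization, filters and trends on length or GC content. Figures used Python 3.11.15 and matplotlib 3.10.9.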

Additional observations from a re-analysis of the deposited data

Results flagged for a closer look

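In groups of 4 values, 7 of 188 groups held a value whose gap to its nearest neighbour relative to the range passed Dixon's critical value at 95%, and chance gives about 1 in 20 such groups. In the responses by litter, WT litter 3 stood apart for Ndufaf3 at 0.40 log2 and WT litter 2 for Ndufaf8 at 0.43 log2. In log2 CPM, the vehicle library of WT litter 1 stood apart for Ndufab1 at 5.96, for Ndufaf6 at 2.97 and for Ndufv3 at 5.03. The vehicle library of NLRX1-/- litter 2 stood apart for Ndufa12 at 6.09, and the LPS+IFNγ library of WT litter 2 for Ndufs1 at 7.08.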

How the results depend on the processing

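Over the alternatives, 156 recomputed counts of the complex I genes equalled or stayed near the main count, while 15 were larger and 23 smaller. Near includes 31 against 38 rises in WT, and many of the equal counts were 0 in both. Of the recomputed medians, 204 kept their sign and stayed within the spread (SD) of the main value. Another 2 moved beyond that spread and 4 changed sign. Rises in NLRX1-/- astrocytes numbered 15, with 0 falls, at an adjusted p below 0.01, where 19.4% of all genes rose and 16.3% fell. By DESeq2, 3 genes had a smaller response in NLRX1-/- astrocytes (1.34% of all genes), 11 were higher in vehicle (2.98%) and 3 were higher after LPS+IFNγ (7.08%). The genes higher after LPS+IFNγ numbered 3 by limma on the deposited log2 CPM (4.4% of all genes) and with the replicate block (6.29%), 2 with the trend on length (3.31%) or on GC content (3.35%) removed, and 0 by limma-voom, without length offsets, without the low-count filter, with the libraries of that treatment alone and at an adjusted p below 0.01. The genes lower after LPS+IFNγ numbered 2 with the replicate block (7.41% of all genes), and 0 with that treatment alone and at an adjusted p below 0.01. With the trend on gene length removed, the subunit median was 0.24 log2 in WT and -0.082 for the interaction. The median genotype difference of the assembly factors after LPS+IFNγ turned to 0.002 with that trend removed, to 0.043 as a mean over members, and lay between -0.093 and 0.007 on leaving out each litter, with 0.005 without NLRX1-/- litter 1 and 0.007 without WT litter 3. Of all genes, 19% to 24.6% rose in WT when each litter was left out, and 21.4% to 24.8% rose and 19.3% to 22.9% fell in NLRX1-/- astrocytes. For the complex I genes, leaving out each litter gave 33 to 39 rises in WT, and 18 to 24 rises and 0 to 1 falls in NLRX1-/- astrocytes. It gave 0 to 1 genes with a smaller response, 0 to 9 higher in vehicle, and 0 to 3 higher and 0 to 3 lower after LPS+IFNγ. The highest of each of these counts came without NLRX1-/- litter 3. In that fit 1.17% of all genes had a smaller response and 3.6% were higher in vehicle. After LPS+IFNγ 9.2% of all genes were higher and 11.2% lower. Without the litter term in the fit of the responses, 36 genes rose in WT and 19 in NLRX1-/- astrocytes, where 18.9% and 21% of all genes rose. No other count of the responses or of their difference changed without that term. The 42 called values of single named genes were each recomputed under the alternatives. Of these recomputed values, 745 kept the call, 55 lost it and 0 changed sign. The cause was not tested. Ndufa4l2 had 0 to 22 reads per library.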
